A study of Homo sapiens with 7 samples.

Results

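The members described here are the test elements numbered 1 to 6000 in a massively parallel reporter assay (MPRA) that was delivered by lentivirus to HepG2, a line derived from a human liver carcinoma. They were taken by number in 3 blocks of 2000, namely 1 to 2000 (the first step), 2001 to 4000 (the second step) and 4001 to 6000 (the third step). A copy, meaning a numbered sequence in 1 orientation, was kept when it had at least 10 counts in each DNA library. This kept 11648 of the 11717 listed copies, out of 134435 kept copies in the whole library. The steps held 3811, 3899 and 3938 kept copies, and 1892, 1939 and 1961 of their sequences were kept in both orientations. The blocks were selected on their measured activity (RNA over DNA in these libraries), which differs between them, so the activity of the steps is given as a description without a test between them.

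Each oligonucleotide carried a test element of 170 nucleotides, and separate amplifications placed the elements forward and reverse before both pools were mixed. HepG2 cells were transduced with the lentiviral library and harvested after 48 hours, with 8 wells for each of 3 replicates. DNA and RNA of each replicate gave 3 DNA and 3 RNA libraries, and a single plasmid library linked barcodes to elements. All cells were of 1 line and carried the same mixed library, there was no treatment or genotype contrast, and the labels do not say whether replicates were separate infections, and p-values therefore cover only how far these libraries vary, which may be technical. What the numbers stand for (the source regions, classes or controls among them) was not used here.

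In an MPRA, each element sits upstream of a minimal promoter and a transcribed barcode. An enhancer or promoter element that recruits transcription factors and the transcription machinery raises barcode RNA over the integrated barcode DNA, while an inert element leaves the minimal promoter at its basal output. Enhancers are classically described as working in either orientation, whereas promoters have a direction, and placing each element both ways tests this for every sequence.

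Activity is the log2 of RNA over DNA relative to the centre set by TMM scaling over all copies, so a value of 0 is the centre of the library and not the level of an inert element. A copy is called active when edgeR's quasi-likelihood test, fitted on all 134435 copies, gave an adjusted p under 0.05 and RNA/DNA was at least 2-fold above that centre. Values per replicate were computed on a log2 scale from the CPM of both molecules with 1 CPM added to each, which understates the change of rare copies.

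The DNA libraries held 34860651 to 44258011 counts and the RNA libraries 108324310 to 114738370. A kept copy of the first, the second and the third step had a median of 287, 286 and 240 counts in DNA replicate 1, and of 1125, 813 and 409 counts in RNA replicate 1. Between replicates, the activity of copies correlated with a Pearson's r of 0.924 to 0.932 in the first step, 0.932 to 0.937 in the second and 0.811 to 0.825 in the third. With 1 CPM added, the SD of a copy over its 3 replicates was much the same in each step, with medians of 0.15, 0.15 and 0.16. The median standard error in the edgeR fit was larger in the third step, at 0.11, 0.11 and 0.14. The spread of activity among copies differed too, with an SD of 0.66, 0.69 and 0.44. The part of each in the lower correlations of the third step was not tested. These correlations are across copies, which share the libraries and are not replicates.

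The bases of the elements were not used here, so the sequences that can be shown are the barcodes through which an element was read. An element is usually averaged over many barcodes, but 46 copies among the listed members had 1 barcode, and 20 of those passed the DNA filter. For these the value of the element is the value of a single 15-base tag. All 276 counts of the 46 copies were even numbers. Over the library none of the 3051 counts above 0 of copies with 1 barcode was odd, while 49.8% of those of copies with 3 to 9 barcodes and 50.1% at 10 to 99 barcodes were even. The deposited counts of copies with 1 barcode may therefore be doubled. If so, their DNA filter is a lower one than for other copies and their standard errors are too small, while RNA over DNA is not affected. The 4 that were called at least 4-fold higher are shown, a choice made after their values were seen, and the barcodes are in lower case throughout because no part of them is singled out.
Seq_284_fwd: ttcaattaaatacat
Seq_284_rev: cttttaattccggta
Seq_296_rev: taagaaggtactatc
Seq_1307_rev: tgagtcaaacgcacc
All 4 belong to the first step. The reverse copy of Seq_284 had DNA counts of 132, 60 and 106 and RNA counts of 1626, 1518 and 1596, a log2 RNA/DNA of 2.88 (SE 0.13). Its forward copy, on another barcode, had DNA counts of 18, 22 and 26 and RNA counts of 332, 238 and 202, a log2 RNA/DNA of 2.41 (SE 0.26). Both orientations of Seq_284 were therefore high, each on 1 tag, and RNA exceeded DNA in all 3 replicates. Seq_1307_rev, at 3.13 (SE 0.25), had 16, 50 and 38 counts in DNA and 792, 614 and 606 in RNA. Seq_296_rev had the most uneven RNA of the 4, at 372, 256 and 624 counts over 44, 36 and 40 in DNA, and a log2 RNA/DNA of 2.27 (SE 0.28).

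The 3 blocks formed a descending series of activity. In the first step 2144 of 3811 copies (56.3%) were active, in the second 1271 of 3899 (32.6%) and in the third 172 of 3938 (4.37%), beside 17.7% of all copies in the library. Median activity per replicate was 0.99, 0.97 and 0.97 in the first step, 0.47, 0.48 and 0.47 in the second, and -0.16, -0.19 and -0.16 in the third. The means were 0.98 ± 0.01, 0.47 ± 0.01 and -0.17 ± 0.01 (SD, n = 3). The first and second steps lay above the library's median of -0.01 ± 0.01 and the third below it. Since activity chose these blocks, nothing further is read from these shares.

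The same order stood in the totals of the libraries. Copies of the first step took 2.79% ± 0.0507 of the DNA counts and 4.85% ± 0.00361 of the RNA counts (SD, n = 3). Those of the second step took 2.85% ± 0.0211 of DNA and 3.83% ± 0.00989 of RNA, and those of the third 2.46% ± 0.00705 of DNA and 1.84% ± 0.0089 of RNA. The share of RNA over the share of DNA was 1.74 ± 0.0315 in the first step, 1.34 ± 0.0076 in the second and 0.748 ± 0.00422 in the third. The authors' deposited table, which is scaled by library totals alone, gave a median signal of 0.70, 0.12 and -0.66 in the 3 steps, and a signal of at least 1 for 33.9%, 17.7% and 1.85% of their kept copies.

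Where the centre is placed changes the shares. It moves all copies by nearly the same amount, so the unchanged order of the steps is not a test of that order. With library totals alone the active copies numbered 1290, 688 and 72, or 33.8%, 17.6% and 1.83%, because the median of all copies then moved by -0.43. With the centre at the mode of all copies, at -0.38 on the TMM scale, they numbered 2732, 1832 and 341, or 71.7%, 47.0% and 8.66%.

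With no minimum fold, edgeR called 3149 copies of the first step higher than the centre and 161 lower, 2423 and 471 in the second, and 630 and 1589 in the third. The library as a whole had 35.2% called higher and 32.2% lower. Of all calls 95.1%, 83.7% and 28.4% were therefore higher in the 3 steps. That split was 83.3%, 58.6% and 9.10% with library totals alone and 99.1%, 97.1% and 79.9% with the mode as the centre. Of the active copies, called from all 3 replicates together, 1530, 861 and 100 were at least 2-fold higher in each single replicate.

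The shape of the distribution differed as well as its level. The first step was broad and leaned to the high side, with quartiles of 0.53, 1.13 and 1.58, a skewness of -0.22 and the fullest bin of 0.1 log2 between 1.55 and 1.65. The second step was the widest, with quartiles of -0.01, 0.55 and 1.23, a skewness of 0.32 and its fullest bin between 0.35 and 0.45. The third step was narrow with a long upper tail, with quartiles of -0.49, -0.24 and 0.10, a skewness of 1.32 and its fullest bin between -0.35 and -0.25. That bin held 9.90% of the third step, against 5.98% and 5.10% for the fullest bins of the first and second. In the whole library the fullest bin lay between -0.45 and -0.35, close to that of the third step. The interquartile ranges were 1.05, 1.23 and 0.60.

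By class of activity, 9.66% of copies in the first step lay below 0, 14.3% between 0 and 0.5, 19.8% between 0.5 and 1, 26.1% between 1 and 1.5, 22.9% between 1.5 and 2 and 7.27% at 2 or above. In the second step 25.2% lay below 0 and the next 5 classes held 22.7%, 19.5%, 17.2%, 11.5% and 3.85%. In the third step 68.8% lay below 0, and the same classes held 20.2%, 6.58%, 2.84%, 1.32% and 0.203%. The second step thus had copies at every level, with no gap between a low and a high group. The 2 ends met only in part. The lowest 5% of the first step lay below -0.24, about the median of the third step, and the highest 5% of the third step lay above 0.94, below the first step's median of 1.13.

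Strong activity thinned out faster than activity as such. Copies called at least 4-fold higher numbered 277 (7.27%), 150 (3.85%) and 8 (0.203%) in the 3 steps, beside 2.18% of the library. Copies at least 8-fold higher numbered 15 (0.394%), 8 (0.205%) and 1 (0.0254%), beside 0.179% of the library. Those of the first step include Seq_1307_rev, which had 1 barcode. At the other end, copies called at least 2-fold lower numbered 0, 6 and 26 (0.660% of the third step), beside 0.488% of the library. The 0 of the first step is a count of calls by edgeR. Without the minimum fold that test called 161 of its copies lower, and the lowest value in the step was -0.92.

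Within each step the numbers were followed in windows of 50. Median activity ranged from 0.56 to 1.40 over the 40 windows of the first step. The range was -0.19 to 0.94 in the second step and -0.36 to 0.20 in the third. The SD of a window's median over the 3 replicates, with 1 CPM added, had a median of 0.031. That SD covers the libraries only and not which copies fall in a window, so differences between windows were not tested. The extreme values at the low end of the first 2 steps and at the high end of the third came from the last 50 numbers of each. Numbers 1951 to 2000 had a median of 0.56 and 33.0% active copies, close to numbers 2001 to 2050 at 0.59 and 37.0%. Numbers 3951 to 4000 had a median of -0.19 and 12.2% active copies, against 0.77 and 38.1% for numbers 3901 to 3950. Numbers 5951 to 6000 had a median of 0.20 and 32.7% active copies, against -0.07 and 5.21% for numbers 5901 to 5950. The level therefore changed before the round boundaries that define the steps.

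Medians over 250 numbers on either side of a point placed the changes more closely. The fall from the second to the third step was sharp, from 0.60 before number 3960 to -0.25 after it. The fall from the first to the second was smaller and spread out, from 1.05 to 0.65 around number 1890, and the difference at 2000 itself was -0.20. The last 50 numbers held 32 of the third step's 172 active copies, and 140 of the other 3840 (3.65%) were active. With all boundaries set 50 numbers lower, a choice made after seeing the data, active copies were 2112 of 3714, 1291 of 3898 and 152 of 3938. Most members of each step stayed in it and activity chose the blocks, so the unchanged order is not a test of that order.

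In windows of 250 the first step rose from a median of 1.00 in numbers 1 to 250 to 1.28 in numbers 751 to 1000, and stood at 0.90 in numbers 1751 to 2000. The per-replicate medians of these 3 windows were 0.87 ± 0.01, 1.10 ± 0.02 and 0.77 ± 0.02 (SD, n = 3). These SDs leave out which copies fall in a window, and the rise and fall were not tested. The second step was nearly level after its start, at 0.70 in numbers 2001 to 2250 and between 0.47 and 0.65 in its other 7 windows. The third step was flatter still, between -0.27 and -0.21 in all 8 windows, and its share of active copies was 1.83% to 4.87% in the first 7 windows and 8.76% in the last.

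Within a step, the number of a sequence told little of its activity. The mean activity of both orientations in sequence N and in sequence N + 1 had a Pearson's r across sequences of 0.00 in the first step, 0.01 in the second and 0.05 in the third. At offsets of 2, 3, 4, 5, 10, 20 and 50 it lay between -0.03 and 0.07 in all 3 steps. For the last numbers of a step, the later partner lies past the end of that step. Between the blocks, numbers 1 to 2000 gave -0.03 with the sequences 2000 numbers later and -0.02 with those 4000 later. Numbers 2001 to 4000 gave -0.04 with the sequences 2000 numbers later. Other pairs at these offsets reach numbers above 6000, outside the blocks, and are left out. No matched order across the blocks was visible in these values.

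The sequences on either side of each boundary held high and low members side by side at 2000 and lower ones at 4000. Before 2000, Seq_1999 had an activity of 2.03 forward and 1.40 reverse, and Seq_2000 had 1.62 and 2.07. After it, Seq_2001 had 1.45 and 1.26, and Seq_2002 had -0.30 and -0.80. At 4000, Seq_3999 had 0.51 and -0.06, Seq_4000 had 0.13 and -0.32, Seq_4001 had 0.02 and -0.60, and Seq_4002 had -0.09 and -0.29. Of these 8 copies only Seq_3999_fwd was called above the centre, with an adjusted p of 0.0045 by edgeR. At 6000, Seq_5999 had 1.26 and 0.18, Seq_6000 had 1.31 and 2.33, and outside the set Seq_6001 had 0.41 and 0.17 and Seq_6002 had 0.11 and 0.52.

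The strongest sequences of each step were taken as the 3 with the highest mean activity of both orientations. Only sequences with at least 10 barcodes in each orientation were eligible. High values in both orientations are therefore largely what this choice asks for. In the first step Seq_931 led, and its forward copy had 6.24, 6.32 and 9.06 CPM in DNA and 50.7, 53.8 and 45.6 CPM in RNA. Its reverse copy had 6.12, 5.12 and 10.8 CPM in DNA and 65.4, 65.5 and 56.0 CPM in RNA. RNA exceeded DNA several-fold in each replicate, with DNA replicate 3 the highest for both copies. The activity was 3.23 (SE 0.11, adjusted p = 5.93e-22 by edgeR) forward and 3.52 (SE 0.24, adjusted p = 4.96e-06 by edgeR) reverse. Seq_1871 followed at 3.39 (SE 0.10) and 2.98 (SE 0.10), and Seq_415 at 3.10 (SE 0.10) and 3.25 (SE 0.11). The means of both orientations were 3.37, 3.18 and 3.17 for the 3 sequences, and the SDs of their copies over replicates were 0.13 to 0.62.

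The second step reached the same heights. The forward copy of Seq_3068 had 6.21, 7.21 and 9.06 CPM in DNA and 59.8, 56.3 and 54.8 CPM in RNA, an activity of 3.36 (SE 0.10), and its reverse copy stood at 3.05 (SE 0.10). Seq_3482, read through 215 and 234 barcodes, had 3.11 (SE 0.12) and 3.30 (SE 0.12), and Seq_2796 had 3.12 (SE 0.11) and 3.24 (SE 0.11). In the third step only Seq_4287 of the 3 named sequences reached a mean above 3, at 3.12. Its forward copy had 7.55, 7.44 and 11.5 CPM in DNA and 49.5, 51.0 and 47.8 CPM in RNA, an activity of 2.92 (SE 0.11). Its reverse copy had 3.75, 4.01 and 4.53 CPM in DNA and 31.8, 27.3 and 31.8 CPM in RNA, an activity of 3.32 (SE 0.10). The next were Seq_4715 at 2.69 (SE 0.11) and 2.31 (SE 0.09), and Seq_4321 at 2.21 (SE 0.10) and 1.83 (SE 0.09). The third step, low as a whole, thus held 1 sequence at the level of the strongest sequences of the first, where its next ones stood lower.

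In DNA replicate 3 strongly active members were more abundant than in DNA replicate 1, as were strongly active copies of the library. With activity taken from RNA replicate 3 over DNA replicate 2, the median of log2 (DNA replicate 3 / DNA replicate 1) was 0.15 among the 367 first-step copies at 2 or above and 0.16 among the 203 of the second step, beside 0.17 in the library. Below 0 it was -0.01 and -0.04, and in the third step it was -0.02 below 0 and 0.07 among the 200 copies between 1 and 2. Its part in the activity of these members was not tested. Without DNA replicate 3 the number of active copies in each step stayed within 1.5 times the values above.

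The lowest copies, taken among those called with at least 10 barcodes, were all reverse copies. This is not particular to the steps. In the library, 0.747% of reverse and 0.228% of forward copies were called at least 2-fold lower. In the first step Seq_1801_rev, with 99 barcodes, had 6.03, 8.58 and 6.94 CPM in DNA and 3.01, 2.56 and 2.84 CPM in RNA, an activity of -0.92 (SE 0.14). Seq_1957_rev, with 20 barcodes, had -0.91 (SE 0.27). In the second step Seq_2537_rev, with 23 barcodes, had 2.15, 3.29 and 1.66 CPM in DNA and 0.758, 0.709 and 0.508 CPM in RNA, an activity of -1.41 (SE 0.26), and Seq_3438_rev had -1.15 (SE 0.20). In the third step Seq_4755_rev, with 46 barcodes, had 9.04, 10.7 and 11.2 CPM in DNA and 3.25, 2.64 and 3.0 CPM in RNA, an activity of -1.36 (SE 0.12), and Seq_5136_rev had -1.23 (SE 0.15). In all 3 copies with printed values, RNA lay below DNA in every replicate, and none of the 6 fell as far below the centre as the strongest copies rose above it.

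Activity was largely shared between orientations where there was activity to share. Of the first step's 1892 sequences kept both ways, 1087 were active forward and 1042 reverse, and 890 were active both ways, which is 81.9% of the forward and 85.4% of the reverse list. In the second step the lists held 655 and 610 sequences with 489 shared, 74.7% and 80.2% of each. In the third step they held 100 and 70 with 55 shared, 55.0% and 78.6%. The library had 74.0% and 80.3%, close to the second step. Among all kept copies, 55.2%, 31.4% and 3.64% of reverse copies were active in the 3 steps. For forward copies the rates were 57.3%, 33.8% and 5.1%. Each shared part lay above the rate in the other orientation, and by least in the first step. Overlap without any link would follow these rates, and activity chose the blocks. The lower shares of the third step are therefore not read as weaker sharing. Sequences active in either orientation numbered 1239 (65.5%), 776 (40.0%) and 115 (5.86%), beside 21.8% of the library. Sequences called lower in both orientations numbered 30 (1.59%), 106 (5.47%) and 404 (20.6%), beside 17.6% of the library.

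Across sequences, forward and reverse activity had a Pearson's r of 0.823 in the first step, 0.848 in the second and 0.674 in the third, with Spearman correlations of 0.804, 0.843 and 0.498. The values share libraries, and the orientations differ in barcodes. The lower value of the third step went with a smaller range of activity. The SD of the mean activity of both orientations was 0.70, 0.75 and 0.48, while the SD of the forward minus reverse difference was 0.44, 0.44 and 0.42.

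Forward copies were on the whole slightly higher, and the excess differed by step. Forward and reverse pools came from separate amplifications, so a difference between the pools cannot be told apart from one of orientation. The median forward minus reverse difference per replicate was 0.02, 0.03 and 0.04 in the first step, 0.08, 0.08 and 0.10 in the second and 0.15, 0.16 and 0.16 in the third. The means were 0.03 ± 0.01, 0.09 ± 0.01 and 0.16 ± 0.01 (SD, n = 3), beside 0.15 ± 0.01 in the library. The value of the first step depends on the pseudocount, and was 0.064 with 0.1 CPM. In the edgeR fit the medians were 0.08, 0.13 and 0.19, in the same order. The third step exceeded the first by 0.12 ± 0.01 (SD, n = 3), and the same direction held in all 3 replicates. An exact sign-flip permutation over 3 replicates cannot go below p = 0.25, so this difference was set against the spread alone. The difference is made from the same counts as activity, so it is not independent of what chose the blocks.

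The excess was set out by the mean activity of both orientations. Among sequences whose mean activity lay between -0.5 and 0, the median difference was 0.19 ± 0.03 in the first step, 0.19 ± 0.01 in the second and 0.18 ± 0.01 in the third (SD, n = 3). Between 1 and 1.5 it was -0.04 ± 0.03, -0.02 ± 0.02 and -0.03 ± 0.06. At 1.5 or above it was -0.05 ± 0.03, -0.04 ± 0.02 and 0.02 ± 0.07. The edgeR fit gave 0.02, 0.03 and -0.01 between 1 and 1.5 and 0.01, 0.01 and 0.04 at 1.5 or above, so the sign among the more active sequences of the first and second steps turned with the scale. Between 0 and 0.5 it was 0.16 ± 0.01, 0.11 ± 0.01 and 0.13 ± 0.02, and below -0.5 it was 0.25 ± 0.04 over 21 sequences, 0.16 ± 0.03 over 78 and 0.14 ± 0.02 over 362. Between 0.5 and 1 the third step was higher, at 0.21 ± 0.03 over 125 sequences. The first had 0.05 ± 0.02 over 358 and the second 0.07 ± 0.04 over 386. This is a single class among those set out, and the SDs leave out which sequences fall in it. In that class 41.6% of sequences in the third step were called higher as the forward copy, against 26.3% and 27.7%, and 27.8% in the library.

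Single sequences were tested with the interaction of molecule and orientation in edgeR, fitted on all 66769 sequences kept both ways. In the library 24.7% were called higher as the forward and 7.68% as the reverse copy. The test was against a difference of 0, while the library's median difference in that fit was 0.18. The forward calls made up 393 (20.8%), 462 (23.8%) and 442 (22.5%) of the sequences in the 3 steps, and the reverse calls 282 (14.9%), 208 (10.7%) and 97 (4.95%). The forward share was near the library's value in each step, and the reverse share was lower in each later step. Reverse calls also went with activity, which chose the blocks. Between -0.5 and 0 in mean activity they were 4.20%, 2.27% and 3.53% in the 3 steps, and 2.87% in the library. Between 1 and 1.5 they were 20.8%, 20% and 18.6%, and 19.8% in the library. The part of activity in the lower reverse share of the later steps was not tested. The counts of calls depend on the number of libraries. Forward calls were 257 without replicate 2 in the first step, and 282 without replicate 1 and 280 without replicate 2 in the third. Reverse calls were 175 without replicate 1 and without replicate 2 in the first step, 134 and 134 in the second and 58 and 53 in the third, where they were 64 without replicate 3.

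Called differences were mostly moderate. The median size of a called forward excess was 0.61, 0.61 and 0.66 in the 3 steps, and that of a called reverse excess was -0.57, -0.57 and -0.63. The direction was the same in all 3 replicates for 380 of 393, 446 of 462 and 433 of 442 forward calls and for 277 of 282, 202 of 208 and 94 of 97 reverse calls. Called differences of at least 2-fold were 36, 47 and 41 forward, where the library had 2.24%, and 13, 14 and 15 reverse, where the library had 0.662%. The 2 orientations of a sequence are read through different barcodes, whose part in a single call was not tested.

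The largest forward excess in the first step, among sequences with at least 10 barcodes each way, was that of Seq_1705. Its forward copy had 3.21, 2.55 and 2.95 CPM in DNA and 7.20, 5.21 and 5.47 CPM in RNA, and its reverse copy had 6.28, 5.61 and 5.79 CPM in DNA and 2.64, 3.48 and 2.89 CPM in RNA. RNA lay above DNA forward and below it reverse in all 3 replicates. The activities were 1.46 and -0.55, and they differed by 2.01 (SE 0.21, edgeR adjusted p = 4.98e-10). The largest reverse excess was that of Seq_1465, on 21 and 23 barcodes, with -0.64 forward and 0.95 reverse and a forward minus reverse value of -1.59 (SE 0.43, edgeR adjusted p = 0.00364). Without replicate 3 that difference was -1.40 with an adjusted p of 0.0526 by edgeR.

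In the second step Seq_3643, on 28 and 37 barcodes, stood at 2.36 (SE 0.18) as the forward copy and at 0.39 (SE 0.18) as the reverse copy. They differed by 1.96 (SE 0.26, edgeR adjusted p = 1.79e-07). Seq_2819 was read through 144 and 166 barcodes. Its forward copy had 11.6, 11.04 and 14.5 CPM in DNA and 13.5, 11.1 and 13.4 CPM in RNA, nearly level, while its reverse copy had 19.2, 22.3 and 23.8 CPM in DNA and 64.4, 57.2 and 62.5 CPM in RNA. Forward minus reverse activity was -1.47 (SE 0.14, edgeR adjusted p = 6.41e-11).

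In the third step Seq_5398 had 1.06 forward and -0.79 reverse, which differed by 1.84 (SE 0.24, edgeR adjusted p = 1.14e-07). Seq_5783 had -0.43 and 0.98, with a forward minus reverse value of -1.41 (SE 0.18, edgeR adjusted p = 7.62e-08). The forward copy of Seq_5398 had 2.42, 2.83 and 2.52 CPM in DNA and 4.46, 4.18 and 3.34 CPM in RNA. Its reverse copy had 3.52, 3.15 and 3.36 CPM in DNA and 1.61, 1.48 and 1.23 CPM in RNA. As with Seq_1705, the 2 orientations lay on opposite sides of equal RNA and DNA CPM in every replicate. Opposite calls of this kind, forward higher and reverse lower than the centre, were made for 20, 31 and 42 sequences of the 3 steps, and the reverse arrangement for 5, 4 and 6. The library had 2.20% and 0.271%, and the third step 2.14% and 0.306%.

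Recovery and abundance do not use RNA, and they differed between the steps too. Of 2000 numbers each, 72 (3.60%) were not listed in the first step, 31 (1.55%) in the second and 17 (0.85%) in the third, beside 1.58% over the library. A listed copy of the first step carried a median of 82 barcodes forward and 89 reverse, one of the second step 82 and 92, and one of the third 70 and 77. The third step therefore listed more of its numbers but each with fewer barcodes. Copies with under 10 barcodes numbered 63 (1.64%), 48 (1.22%) and 31 (0.783%). There was 1 plasmid library, so the barcode numbers have no replicate check.

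Median DNA abundance followed the barcodes, at 6.53 ± 0.115, 6.50 ± 0.0322 and 5.46 ± 0.0352 CPM per kept copy in the 3 steps (SD, n = 3). DNA counts per barcode were nearly equal, at 3.03 ± 0.403, 3.002 ± 0.409 and 2.92 ± 0.418 (SD, n = 3). Reverse copies were more abundant than forward ones in each step, with 7.53 against 5.71 CPM in the first, 7.57 against 5.61 in the second and 6.24 against 4.84 in the third. The bases G and C made up 39.0% of barcode bases in each of the 3 steps, and 39.0% in the library.

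Activity moved a little with barcode number. From 10 to 49 barcodes the median activity was 1.27, 0.54 and -0.33 in the 3 steps, from 50 to 99 it was 1.13, 0.54 and -0.24, and from 100 to 199 it was 1.08, 0.55 and -0.16. At 200 or more barcodes it was 1.14 over 89 copies, 0.57 over 81 and 0.01 over 68. It was thus higher with more barcodes in the third step, nearly level in the second, and in the first lower up to 199 barcodes but not beyond. The order of the steps was the same in each of these 4 groups. Activity chose the blocks, so that order is not a check on barcode number. The part of barcode number in the differences between steps was not tested. Precision rose with barcodes in every step, from a median SD over replicates of 0.19 at 10 to 49 barcodes to 0.13 at 100 to 199 in each.

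The DNA filter left out 23, 24 and 22 copies of the 3 steps, with a median of 2, 2.5 and 2.5 barcodes. Their counts summed over the 3 libraries of a molecule had a median of 26, 33 and 31.5 in DNA and 98, 110.5 and 59 in RNA. They are in no comparison here. Copies at 0 in all 3 DNA libraries numbered 2, 1 and 4, and 1, 1 and 4 of them had RNA counts.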

How the data were processed

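Counts per element and orientation in each of 3 DNA and 3 RNA libraries were used as deposited, per the file headers. The deposited table of pooled replicates holds total counts, CPM by the authors from library totals, the ratio of these by the authors with a small constant added to each, and a signal that is the log2 of that ratio by the authors. BWA 0.7.17 and hg38 are named, without a role, per the submitters' processing notes. The sources used here do not say whether reads or molecular identifiers were counted. The standard errors come from dispersions fitted over these libraries, so they cover the spread of these libraries and nothing beyond it. Barcodes per copy were tallied from the plasmid library.

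edgeR 4.0.16 in R 4.3.3 (quasi-likelihood, robust, TMM over library totals, Benjamini-Hochberg) was fitted on every copy that had 10 or more counts in all 3 DNA libraries, with molecule as the term. Orientation was the interaction term over sequences kept both ways. Standard errors are the log2 change over the square root of F. CPM are scaled by library totals, and per-replicate log2 ratios by TMM with a pseudocount of 1 CPM. Both tests were tested on simulated data. DESeq2 1.42.0, limma 3.58.1, other scalings, filters, a replicate block and left-out libraries were alternatives. Named sequences were, per step, the 3 with the highest mean of both orientations, the 2 lowest called copies, the largest excess each way (at least 10 barcodes), and those beside each boundary. Members and lists were chosen with earlier results of these data known.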

Additional observations from a re-analysis of the deposited data

Results flagged for a closer look

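Seq_4977_rev, a copy of the third step with 2 barcodes that the DNA filter left out, had no count in any DNA library and 10 RNA counts summed over the 3 RNA libraries, with 2, 8 and 0 per library. It is given here because this lies above the limit of 8.76 RNA counts that a DNA count of 0 allows, taken as 3 counts at the depth of the pooled DNA libraries and equal RNA and DNA CPM.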

How the results depend on the processing

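The centre was the choice that moved most values. With library totals alone, active copies were 1290, 688 and 72 in the first, the second and the third step, lower calls 530, 1236 and 2958, and the mean of the replicate medians of activity 0.61, 0.11 and -0.50. With the centre at the mode, active copies of the third step were 341 and lower calls 30, 92 and 335. A minimum fold of 1.5 gave 369 higher calls in the third step, and no minimum fold 2423 in the second and 630 in the third. A pseudocount of 0.1 CPM gave medians of activity of 1.11, 0.55 and -0.22 and median orientation differences of 0.064, 0.11 and 0.19, and library totals alone gave 0.17 for the last of these. At least 50 DNA counts gave a median activity of 0.99 in the first step, and boundaries 50 numbers lower gave 0.99 and 0.49 in the first and second. A 2-fold minimum left 36, 47 and 41 forward and 13, 14 and 15 reverse orientation calls.

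Leaving out each replicate gave 257 to 291, 311 to 328 and 280 to 310 forward and 175 to 220, 134 to 147 and 53 to 64 reverse orientation calls, with fewer libraries in each fit. Active copies were then 2093 to 2138, 1240 to 1276 and 161 to 181. With DESeq2, limma, RLE scaling, other filters on DNA counts or barcodes, DNA replicate 3 left out, or the replicate block, each count of calls stayed within 1.5 times its reported value. Same-numbered DNA and RNA libraries deviated together with correlations of 0.03 to 0.05, each the highest for its number. Libraries of unlike numbers gave -0.03 to -0.01. Deviations were taken from the mean of each molecule's libraries and cancel within it. The negative values therefore go with the positive ones and are not separate evidence. The per-replicate ratios paired the libraries by number, while the main edgeR fits did not use the pairing. With the replicate block, active copies were 2150, 1272 and 172 and orientation calls 397, 467 and 444 forward and 283, 209 and 100 reverse. Of 535 refits of named copies and sequences, 522 kept direction and side of the threshold. Seq_3643_rev, not called, changed sign to -0.034 with library totals alone. The median standard error of a copy was 0.14 in the third step and 0.11 in the first and second.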
